A study of Mus musculus with 9 samples.

Results

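Mitochondrial ribosomal protein genes were examined in mouse primary renal tubular epithelial cells (TECs) under hypoxia/reoxygenation (H/R) or Egr1 overexpression. The members are the protein-coding genes whose symbol is Mrpl or Mrps followed by a number and at most 1 letter. This rule took 77 of the 31167 genes in the expression table and used no measured value. All 77 passed the filter on low values and were tested. By the subunit in which the protein sits, 50 members belong to the large subunit and 26 to the small subunit, while Mrps36 was set apart because its protein is now placed in the alpha-ketoglutarate dehydrogenase complex.

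Mitochondria carry their own ribosome, which translates the few mRNAs of the mitochondrial genome, all of them for subunits of the respiratory chain and the ATP synthase. Its rRNAs are transcribed inside the mitochondrion, but every one of its proteins is encoded in the nucleus, made in the cytosol and imported. Some of these proteins descend from a bacterial ribosomal protein and others were added in the mitochondrial lineage, and renal tubule cells, which pump solute continuously, are known for their dense mitochondria.

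RNA sequencing covered 9 libraries of TECs from C57BL/6 mice in 3 groups of 3. Sham cells were untreated, H/R cells were kept for 6 h at 1.0% oxygen in medium without glucose and then for 18 h in complete medium, and EGR1OV cells received a plasmid that expresses Egr1 from the CMV promoter, without H/R. The groups compared hold no empty-vector control, so the transfection and the added Egr1 cannot be told apart, and the labels do not say whether libraries of a group came from separate cultures, so p-values measure only the spread between these libraries. In bulk RNA, fewer cells of a type and less RNA per cell cannot be told apart. Egr1 stood at 6.20, 6.91 and 6.09 FPKM for Sham, 8.57, 7.59 and 7.48 for H/R and 45.7, 42.2 and 40.1 for EGR1OV, where FPKM is a fragment count divided by exon length and by library depth. Depth, recovered from the steps of the values, ran from 16183609 to 18384020 reads a library. The epithelial genes Pax8 (11.8 to 13.7 FPKM over the 9 libraries) and Cdh1 (86.0 to 102.5 FPKM) were expressed, but 5 of 17 tubule markers stayed under 0.5 FPKM in every library, the segment transporters Slc34a1, Slc5a2, Slc12a1 and Slc12a3 and the thick-limb protein Umod, which was listed at 0 throughout. Most of the sum of the 17 tubule markers was Krt8 and Krt18. This sum was 2013 to 2051 FPKM in Sham, 1868 to 1952 in H/R and 1313 to 1422 in EGR1OV. Of the 11 tubule markers tested in limma, 4 rose (36.4%) and 6 fell (54.5%) in EGR1OV against Sham at an adjusted p under 0.05. All genes tested gave 26.1% and 19.8%. The 11 macrophage markers summed to 142 to 146 FPKM in Sham, 117 to 125 in H/R and 22.9 to 27.6 in EGR1OV, with none of them listed at 0 in any library. The 8 fibroblast markers, most of whose sum was Acta2, gave 2907 to 3021, 2653 to 2850 and 1144 to 1213 FPKM. The 7 endothelial markers gave 17.5 to 18.5, 18.2 to 18.8 and 14.3 to 14.8 FPKM. Of the 5 fibroblast markers tested in limma, 2 rose and 1 fell in EGR1OV against Sham at an adjusted p under 0.05. The fall was that of Acta2 (log2 change -1.38), while Col1a1 (0.27) and Col1a2 (0.45) rose. In H/R against Sham, 2 also rose, Col1a1 (0.27) and Col1a2 (0.32), and 1 fell, Pdgfrb (-0.23), where all genes gave 4.15% and 7.54%. The part of these cell types in the results was not tested.

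Levels of the members differed widely in untreated TECs. The mean in Sham ran from 1.45 FPKM to 55.4 FPKM, with a median of 10.5 FPKM, against a median of 5.65 FPKM over all 13985 genes tested. Protein-coding genes tested had a median of 6.82 FPKM. The median exon length, by which FPKM is divided, was 2533 bases for the members and 4464 for protein-coding genes. Mrpl34, a small large-subunit protein with a bacterial counterpart, stood highest with 50.7, 54.1 and 61.4 FPKM. Next came Mrps21, the small-subunit counterpart of a bacterial protein, with 43.1, 42.2 and 46.2 FPKM. The libraries of these genes did not overlap with those of any lower-ranked member. Mrpl52 followed at 33.8, 36.3 and 38.3 FPKM, and Mrpl20, which in bacteria joins the large subunit early in assembly, at 31.3, 31.5 and 32.1 FPKM. The next pair, Mrpl43 at 27.5 to 29.2 FPKM and Mrpl54 at 26.1 to 30.0 FPKM, overlapped in Sham and so could not be ordered. At the other end Mrpl33 was listed at 1.21, 1.38 and 1.75 FPKM, Mrpl48 at 1.90, 1.89 and 2.01 FPKM, and Mrps35 at 1.90, 1.96 and 2.204 FPKM, with the last pair overlapping. This order depends on exon length, which is 607 bases for Mrpl34, 7326 for Mrpl33 and 8152 for Mrpl48. Over the 9 libraries these genes had 370 to 615, 142 to 216 and 254 to 329 reads. The gap between Mrpl34 and the other genes was thus wider in FPKM than in reads.

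**Figure D1:**
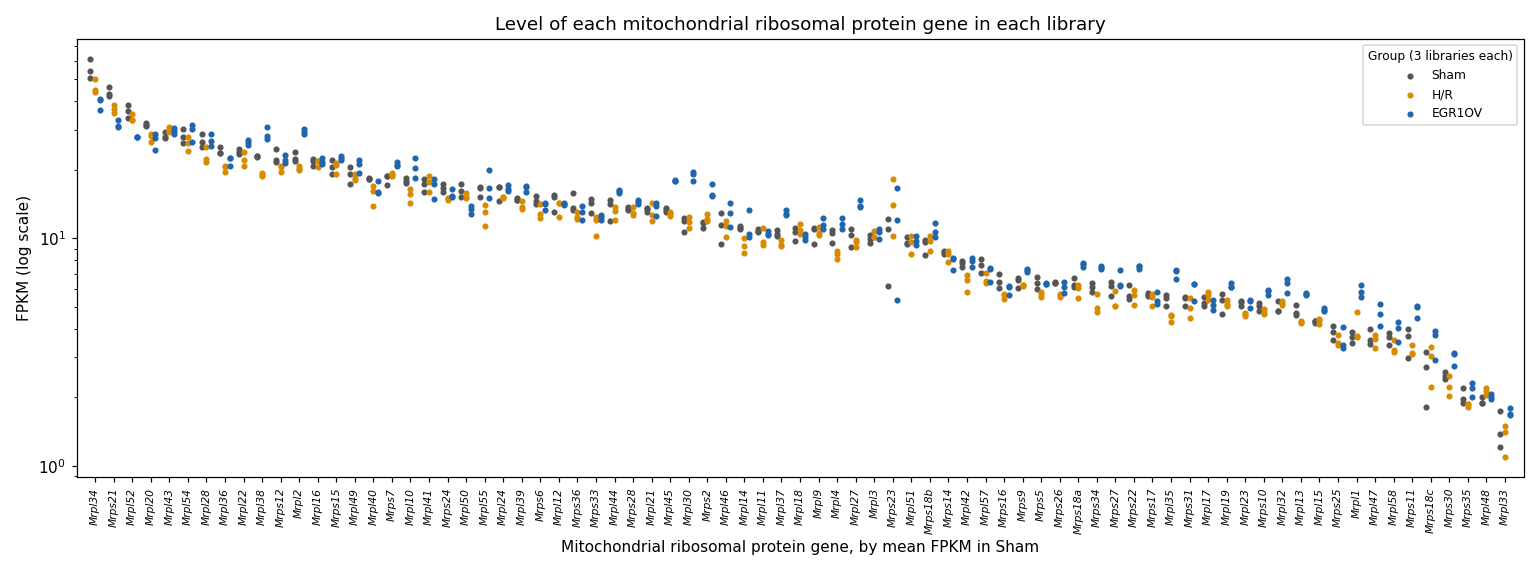
FPKM on a log axis for each of the 77 genes, ordered by their mean in Sham, with 1 point per library and 3 libraries per group. Levels run from about 1 FPKM for Mrpl33 to 61.4 FPKM for Mrpl34, and the points of Mrps23 are spread widely in every group.

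Replicates agreed closely for most members, with a median coefficient of variation of 5.51% for Sham, 5.195% for H/R and 4.59% for EGR1OV. Mrps23, a small-subunit protein added in the mitochondrial lineage and named after its values were seen, varied most. It measured 6.16, 11.0 and 12.1 FPKM for Sham, 18.2, 10.3 and 14.1 for H/R, and 12.1, 16.7 and 5.37 for EGR1OV. Each group held both high and low libraries and all 3 groups overlapped, so nothing was read from its group means. Mrps18c had the fewest reads behind a value, 34 in its lowest library, and also varied strongly, from 1.81 to 3.15 FPKM within Sham. By position, exons of 32 members overlap exons of another gene, and whether the counting used strand is not given in the sources used here. Among members described below, Mrps34 shares 63.4% of its exon bases with Mapk8ip3 on the opposite strand and 37.0% with Nme3 on the same strand. Mrpl43 shares 33.4% with Twnk and Mrps18b shares 30.5% with the antisense gene Gm16279, both on the opposite strand. On the same strand, Mrps18c shares 23.2% with Gm43511 and Mrps24 shares 15.4% with Urgcp. Reads of these pairs may be mixed, and counting by strand would not separate the pairs on the same strand.

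Promoters of nuclear genes for mitochondrial proteins are known for sites of Nrf1, of ETS factors such as GABP and of Yy1, so the windows from 250 bases before to 50 bases after each RefSeq start (GRCm38.p6) were searched on both strands. A window was given for 68 of the 77 members, 74 windows in all. The missing entries are Mrps35, Mrpl19, Mrps34, Mrpl54, Mrpl38, Mrps28, Mrpl13, Mrpl4 and Mrpl15. The Nrf1 motif GCGCATGCG lay in 7 member windows (9.5%) and in 1.8% of all 32851 windows. The ETS motif CCGGAAGT lay in 12 (16.2%, against 3.9%), and the Yy1 motif AANATGGCG in 11 (14.9%, against 2.4%). Of the Egr1 motifs, GCGTGGGCG lay in 0 member windows (0.6% of all) and GCGGGGGCG in 3 (4.1%, against 2.9%), those of Mrpl39, Mrps24 and Mrps7. A TATAAA box lay in 5 (6.8%, against 13.6%). No motif in this search contains another, and a match is a description of letters, not of binding. Below are exon-free stretches upstream of the start: Mrpl30 for the largest rise in EGR1OV, Mrps22 and Mrpl43 for the ETS motif, Mrpl10 and Mrpl22 for the Nrf1 motif and Mrps24 for an Egr1 motif. Capitals mark the motif on either strand, and Mrpl30 holds none of those searched. Mrpl10, Mrpl22 and Mrps24 were picked for their motif with values known.
Mrpl30, chr1:37890412-37890476, plus strand: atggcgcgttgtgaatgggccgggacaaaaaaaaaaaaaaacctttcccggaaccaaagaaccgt
Mrps22, chr9:98601680-98601799, minus strand: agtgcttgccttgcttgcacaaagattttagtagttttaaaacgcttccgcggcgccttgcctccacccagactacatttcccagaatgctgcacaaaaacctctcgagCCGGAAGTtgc
Mrpl43, chr19:45006443-45006557, minus strand: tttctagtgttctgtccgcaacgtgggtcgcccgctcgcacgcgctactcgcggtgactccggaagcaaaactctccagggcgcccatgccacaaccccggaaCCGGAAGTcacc
Mrpl10, chr11:97041440-97041559, plus strand: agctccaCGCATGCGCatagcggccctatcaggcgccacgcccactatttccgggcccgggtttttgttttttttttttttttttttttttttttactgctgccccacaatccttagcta
Mrpl22, chr11:58171541-58171660, plus strand: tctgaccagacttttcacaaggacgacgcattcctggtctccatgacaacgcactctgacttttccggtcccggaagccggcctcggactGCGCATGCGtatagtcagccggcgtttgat
Mrps24, chr11:5707702-5707821, minus strand: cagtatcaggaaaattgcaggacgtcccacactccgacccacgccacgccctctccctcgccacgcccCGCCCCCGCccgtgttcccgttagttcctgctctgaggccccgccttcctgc

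In EGR1OV against Sham, more members rose than fell as the values were deposited, but not with quantile normalization. At an adjusted p under 0.05, 27 members rose and 6 fell, against 26.1% and 19.8% of all genes tested, and with quantile normalization the split was 14 risen and 16 fallen. With a change of at least 1.3-fold as well, 5 rose and 2 fell, where all genes gave 9.87% and 6.51%. With quantile normalization these calls were 2 and 3, and with a trend over coding length removed they were 7 and 0. The median change of the 77 members was 0.086 on the log2(FPKM + 1) scale, and that of all genes was 0.017. With quantile normalization the median of all genes was -0.049, so that setting moved genes in general downward. The shares of all genes given here belong to the values as deposited. In the large subunit 19 of 50 rose and 5 fell, and in the small subunit 8 of 26 rose and 1 fell. Members with a bacterial counterpart gave 18 risen and 4 fallen of 46, and those added in the mitochondrial lineage 9 and 2 of 30. In the same comparison the summed macrophage markers went from 142 to 146 FPKM down to 22.9 to 27.6 FPKM. Acta2 and the summed tubule markers also fell, and the part of all these markers in the counts was not tested.

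Mrpl30 (chromosome 1, 37890477 to 37898535), a large-subunit protein with a bacterial counterpart, had the largest rise. It measured 10.7, 11.9 and 12.3 FPKM for Sham, 11.8, 11.1 and 12.4 for H/R, and 19.2, 17.9 and 19.6 for EGR1OV. All EGR1OV libraries lay above every other library, while Sham and H/R overlapped. The log2 change was 0.66 (SE 0.059, adjusted p = 1.77e-05). Its start lies 66 bases from that of Mitd1, transcribed the other way and known to act in the final separation of dividing cells, which was named after its values were seen. Mitd1 averaged 4.14 FPKM for Sham, 4.42 for H/R and 18.6 for EGR1OV, a log2 change of 1.93 (adjusted p = 1.26e-08), so the head-to-head genes both rose, by different amounts. The stretch between them is the Mrpl30 sequence printed above.

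Mrpl1, of the mobile stalk where spent tRNAs leave the large subunit, read 3.48, 3.70 and 3.89 FPKM in Sham and 6.24, 5.51 and 5.83 in EGR1OV, with no overlap (log2 change 0.55, SE 0.083, adjusted p = 0.000526). H/R libraries of Mrpl1 gave 3.67, 3.74 and 4.75 FPKM and overlapped with Sham. Mrps2, a small-subunit protein with a bacterial counterpart, went from 11.8, 11.6 and 11.1 FPKM to 15.5, 17.3 and 15.4 (0.44, SE 0.049, adjusted p = 7.12e-05). In both genes the EGR1OV libraries were the 3 highest of 9. Mrpl27, whose bacterial counterpart reaches toward the peptidyl transferase centre, went from 10.3, 9.14 and 11.0 FPKM to 13.9, 13.7 and 14.7 (0.44, SE 0.060, adjusted p = 0.000279). Mrpl45, which holds the ribosome to the inner membrane beside the exit of the peptide tunnel, had the tightest replicates of these. It read 13.3, 13.5 and 13 FPKM for Sham, 12.5, 12.8 and 13.1 for H/R and 17.8, 18.1 and 17.8 for EGR1OV (0.40 against Sham, SE 0.029, adjusted p = 4.03e-06). Sham and H/R interleaved and EGR1OV stood clear above both. Under the 1.3-fold threshold but past the adjusted p were Mrps11 (0.36), Mrpl2 (0.36) and Mrps22 (0.33), the last with the ETS motif shown above. Under quantile normalization the change of Mrpl45 was 0.30, of Mrps2 0.34 and of Mrpl27 0.33, each still past the adjusted p.

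Of the 6 members that fell in EGR1OV, Mrpl34, Mrps21, Mrpl52 and Mrpl20 were the 4 highest in Sham, whereas Mrpl50 stood lower, at 15.2 to 17.4 FPKM. Mrpl34, Mrpl52 and Mrpl20 are also short, with 276, 363 and 447 coding bases, and level was not separated from length. Mrpl34 dropped from 50.7, 54.1 and 61.4 FPKM in Sham to 36.7, 40.6 and 40.7 in EGR1OV, with 49.9, 44.9 and 43.8 in H/R. The 3 groups did not overlap, with H/R in between (log2 change in EGR1OV -0.48, SE 0.075, adjusted p = 0.00067). Mrps21 went from 43.1, 42.2 and 46.2 FPKM in Sham to 35.5, 37.1 and 38.5 in H/R and 31.1, 30.7 and 33.1 in EGR1OV, again in separate ranges (-0.46, SE 0.045, adjusted p = 3.15e-05). Mrpl52, a lineage-specific protein of the large subunit, held 27.9, 27.7 and 27.9 FPKM in EGR1OV, under all 6 other libraries (-0.36, adjusted p = 0.000144). The other falls were those of Mrpl50 (log2 change -0.27), Mrpl20 (-0.23) and Mrpl36 (-0.14), the last a short zinc-binding protein of the large subunit. With a trend over coding length removed, Mrpl34 fell by 0.34 and Mrps21 by 0.30 on the log2 scale, still past the adjusted p but under the fold threshold, while Mrpl36 was no longer past it (adjusted p = 0.823). With a library left out, Mrpl36 also did not pass in 2 of 9 fits, with an adjusted p of 0.0686 and 0.0761.

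**Figure D2:**
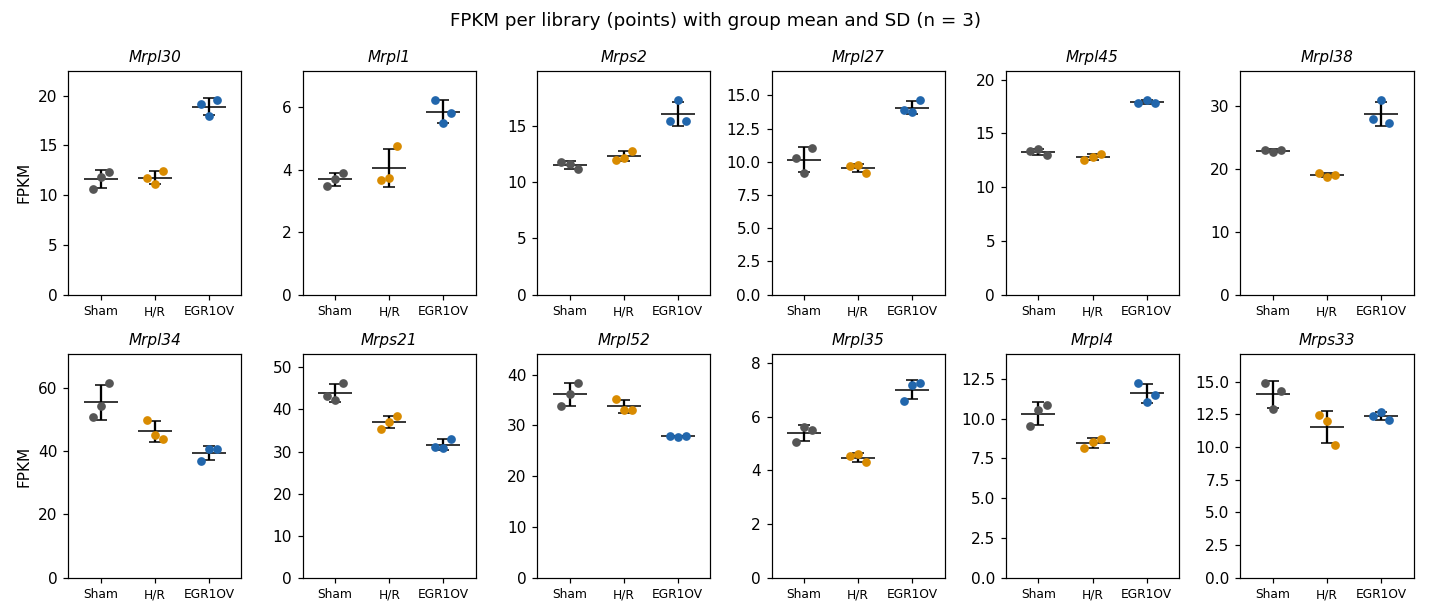
FPKM in each library for 12 of the genes, as points, with the group mean and SD (n = 3) in black and axes that start at 0. The upper row shows genes that are highest in EGR1OV, and in the lower row Mrpl34, Mrps21 and Mrpl52 are lowest in EGR1OV, Mrpl35 and Mrpl4 lowest in H/R, and Mrps33 highest in Sham.

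In H/R against Sham, members that passed the test were all lower, by small amounts. At an adjusted p under 0.05, 0 rose and 11 fell, against 4.15% and 7.54% of all genes. Of the latter count, 7 were of the large subunit and 4 of the small subunit. With a change of at least 1.2-fold, 0 rose and 1 fell, where all genes gave 1.6% and 2.65%. The median change of the members was -0.085 on the log2(FPKM + 1) scale, and that of all genes was -0.030. The count depended on single libraries: it was 7, 5 and 4 without Sham replicate 1, 2 or 3, and 5 without H/R replicate 2 or 3. With median-ratio scaling 1 rose and 4 fell, and with a trend over coding length removed 1 rose and 6 fell. In these fits 10.3% and 15.6% of all genes passed, counted in either direction.

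The single call was Mrps33, a small-subunit protein without a bacterial counterpart, at 14.9, 12.9 and 14.3 FPKM in Sham and 12.5, 11.98 and 10.2 in H/R. The lowest Sham library lay just above the highest H/R library (log2 change -0.26, SE 0.073, adjusted p = 0.0481), and in 7 of the 9 fits that left a library out the adjusted p was 0.0639 to 0.138. Mrpl38, a large-subunit protein added in the mitochondrial lineage, showed no overlap, with 22.97, 22.6 and 23 FPKM in Sham and 19.4, 18.7 and 19.0 in H/R (-0.25, SE 0.043, adjusted p = 0.00808). Mrpl36 went from 23.8, 23.8 and 25.1 FPKM to 20.7, 20.7 and 19.6 (-0.24, adjusted p = 0.00715), without overlap. Mrpl4, which lines the peptide exit tunnel, went from 9.50, 10.5 and 10.9 FPKM to 8.12, 8.50 and 8.75 (-0.26, adjusted p = 0.0201). Mrpl42 and Mrpl35 of the large subunit and Mrps21 and Mrps34 of the small subunit fell by 0.24, 0.22, 0.24 and 0.22 on the log2 scale. The remaining falls, the last pair named to complete the count, were those of Mrpl2 (-0.15), Mrps24 (-0.14) and Mrpl37 (-0.14). Without Sham replicate 2 or 3 the adjusted p of Mrpl4 was 0.0646 or 0.0683, and without H/R replicate 1 or 2 it was 0.0596 or 0.052. In 8 of the 9 fits that left a library out Mrps34 no longer passed the test (adjusted p 0.0644 to 0.135). Mrpl2, Mrpl35 and Mrpl42 did not pass in 5 of 9 each (0.0518 to 0.0913).

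**Figure D3:**
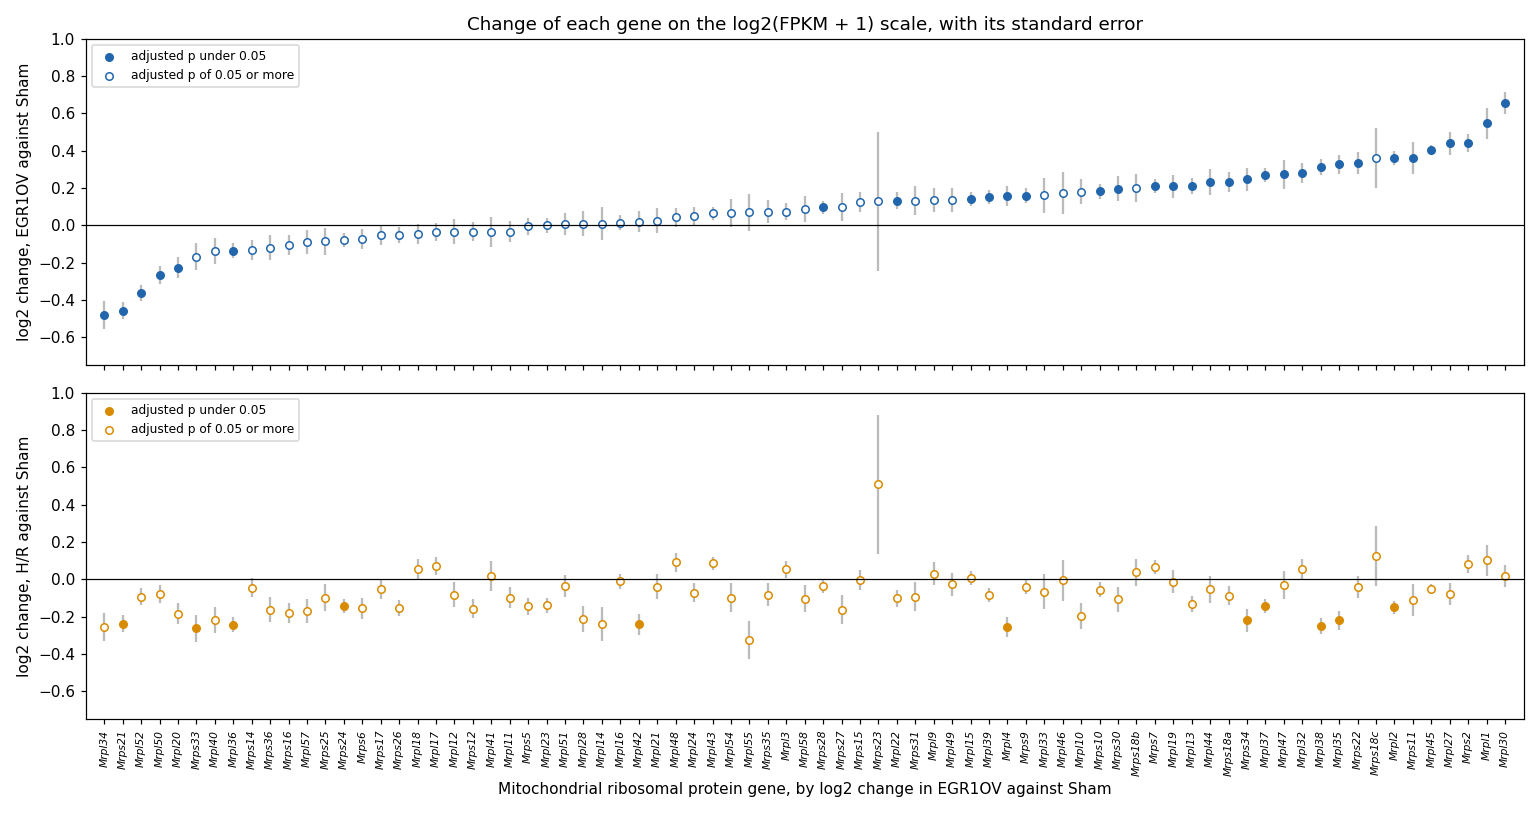
Log2 change with its standard error for each of the 77 genes in EGR1OV against Sham (upper panel) and H/R against Sham (lower panel), in the same gene order. Filled points are at an adjusted p under 0.05. The upper panel has 27 filled points above 0 and 6 below (14 and 16 with quantile normalization), and the lower panel has 11, all below 0.

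The comparisons against Sham share the Sham libraries, so the direct comparison of EGR1OV with H/R was also made. Here 37 members were higher in EGR1OV and 4 lower at an adjusted p under 0.05, against 32.0% and 19.0% of all genes. Median-ratio scaling gave 26 and 7, and quantile normalization 19 and 9. With a change of at least 1.3-fold, 12 were higher and 0 lower, where all genes gave 11.9% and 6.94%, and quantile normalization left 5 of the higher calls. The median change was 0.156 for the members and 0.055 for all genes. That of all genes was 0.005 with median-ratio scaling and -0.04 with quantile normalization, and the shares of all genes are those without either. In the large subunit 26 of 50 were higher and 3 lower, and in the small subunit 11 of 26 were higher and 1 lower.

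Several large-subunit genes had their lowest level in H/R and their highest in EGR1OV. Mrpl38 measured 28.0, 30.9 and 27.2 FPKM in EGR1OV, against the 18.7 to 19.4 FPKM of H/R, with Sham in between and no overlap of any groups (log2 difference 0.57, SE 0.043, adjusted p = 5.34e-06). Mrpl35, with a bacterial counterpart, gave 5.05, 5.62 and 5.49 FPKM for Sham, 4.53, 4.60 and 4.30 for H/R and 6.60, 7.17 and 7.25 for EGR1OV (0.55 for EGR1OV against H/R, SE 0.051, adjusted p = 2.15e-05). The order H/R, Sham, EGR1OV again held in every library. Mrpl2, a core protein near the peptidyl transferase centre, gave 20.02, 20.8 and 20.2 FPKM in H/R and 30.1, 28.6 and 29.4 in EGR1OV (0.51, SE 0.037, adjusted p = 3.97e-06). In Mrpl4 the change was -0.26 in H/R and 0.16 in EGR1OV, each against Sham, and the difference between the treatments was 0.41 (adjusted p = 0.00022). The rise of Mrpl4 in EGR1OV, at an adjusted p of 0.0444, depended on single libraries, and the adjusted p was 0.0525 to 0.144 without Sham replicate 1 or 2, H/R replicate 2 or 3, or EGR1OV replicate 1 or 3, and 0.481 with quantile normalization. Mrps34 changed by -0.22 and 0.25 and Mrpl37 by -0.14 and 0.27, and they differed by 0.47 and 0.41 between the treatments. With quantile normalization the rise of Mrps34 against Sham did not pass (adjusted p = 0.0672). Mrps34 shares most of its exon bases with other genes, as said above. Lower in EGR1OV than in H/R were Mrpl52 (-0.27), Mrpl34 (-0.23), Mrps21 (-0.22) and Mrpl50 (-0.19). For Mrpl34 the adjusted p was 0.109 and 0.052 without H/R replicate 1 or 2 and 0.108 without EGR1OV replicate 1.

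The direction of change in EGR1OV went with the length of the coding sequence, taken from GENCODE M21. Of the 22 members with at most 450 coding bases, 1 rose and 5 fell at an adjusted p under 0.05, with a median log2 change of -0.065. Among other protein-coding genes of that class 12.9% rose and 36.8% fell. The 18 members of over 450 and up to 600 bases gave 7 risen and 1 fallen, with a median of 0.081, where 21.5% and 26.2% of the other genes did so. Of the 37 longer members 19 rose and 0 fell, with a median of 0.156, beside 30.8% and 20.2% of the other genes. Other protein-coding genes gave medians of -0.116 (790 genes), -0.015 (701 genes) and 0.036 (10250 genes) in the same classes. Genes are not independent replicates, and as a description the Spearman correlation of the change with coding length across genes was 0.57 over the 77 members and 0.10 over 11741 other protein-coding genes. In H/R against Sham it was 0.22 and 0.07. The class medians of the members there were -0.159, -0.082 and -0.056, beside -0.085, -0.04 and -0.026 for other protein-coding genes. In the Sham libraries the other short genes lay 0.050 to 0.083 above their mean over 9 libraries on the log2 scale, in H/R -0.051 to 0.004 and in EGR1OV -0.055 to -0.038, so short genes as a class moved with the groups, and their part in the member results was not tested. With that trend removed over protein-coding genes, 32 members rose and 5 fell in EGR1OV against Sham. In that fit 53.1% of the 11818 genes passed the adjusted p, counted in either direction.

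**Figure D4:**
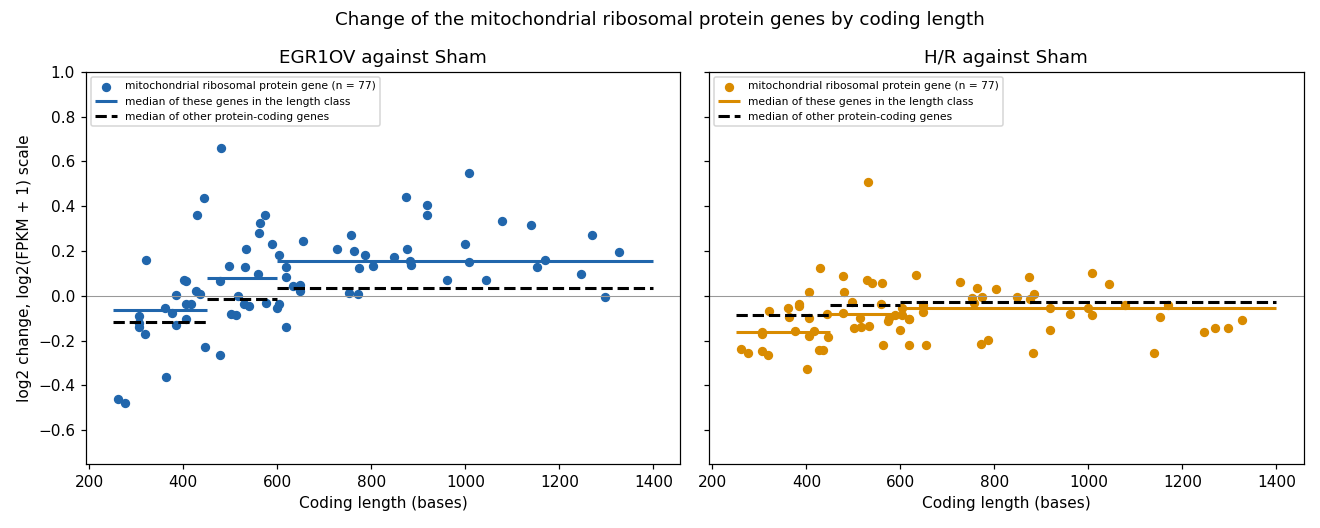
Log2 change of the 77 genes (points) against coding length in bases, for EGR1OV against Sham (left) and H/R against Sham (right). Coloured bars are the medians of these genes in the classes up to 450, 450 to 600 and over 600 bases (-0.065, 0.081 and 0.156 on the left), and dashed black bars are the medians of other protein-coding genes (-0.116, -0.015 and 0.036 on the left).

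Members with functions of their own were also followed. Mrpl12, the counterpart of the bacterial stalk protein that contacts the translation GTPases, ran from 12.4 to 15.4 FPKM over the 9 libraries with all groups overlapping. Mrps12, which sits at the decoding centre, gave 21.6, 22.1 and 24.6 FPKM for Sham, 20.9, 20.6 and 19.5 for H/R and 22.1, 21.4 and 23.1 for EGR1OV, and no comparison passed the test, though with the coding-length trend removed EGR1OV exceeded H/R (adjusted p = 0.0291). Mrpl58, a peptidyl-tRNA hydrolase built into the large subunit that frees stalled ribosomes, was 3.18 to 3.58 FPKM in H/R and 3.51 to 4.28 in EGR1OV, overlapping (log2 difference 0.19, adjusted p = 0.0472). Its adjusted p was 0.0508 to 0.154 in 7 of the 9 fits without 1 library. Mrps18a, Mrps18b and Mrps18c are paralogs, of which Mrps18c was classed as the counterpart of the bacterial protein and the others as additions, and Mrps18a sits in the large subunit. Mrps18a gave 6.11, 6.22 and 6.70 FPKM in Sham and 7.69, 7.76 and 7.44 in EGR1OV, with no overlap (0.23, adjusted p = 0.00561), but with quantile normalization its change was 0.14 (adjusted p = 0.0582). Mrps18b (0.20, adjusted p = 0.0536) and Mrps18c (0.36, adjusted p = 0.0987) did not pass, though they did with the coding-length trend removed (adjusted p = 0.0349 and 0.0254), and whether the paralogs differ was not tested. Mrps30, likewise a large-subunit protein despite its name, changed by 0.20 in EGR1OV against Sham (adjusted p = 0.0385), but the adjusted p was 0.0535 to 0.111 without any 1 of the Sham libraries, H/R replicate 2, or EGR1OV replicate 1 or 3, and 0.142 with quantile normalization. Mrps36 gave 13.5, 13.3 and 15.7 FPKM for Sham, 12.2, 12.4 and 13.1 for H/R and 12.1, 13.8 and 13.01 for EGR1OV, and no comparison passed, though with quantile normalization it was lower in EGR1OV than in Sham (-0.23, adjusted p = 0.022).

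Genes that work with these proteins were taken from lists of mitochondrial translation, whose counts stand against the 26.1% of all genes that rose and the 19.8% that fell in EGR1OV. The 5 proteins of the mitochondrial ribosome with other names gave 3 risen (60%) and 0 fallen in EGR1OV against Sham, Gadd45gip1 (log2 change 0.25), Aurkaip1 (0.17) and Dap3 (0.15). Of 26 assembly factors tested 8 rose (30.8%) and 2 fell (7.7%), with the largest rises in the rRNA methyltransferase Mrm3 (0.52), the helicase Ddx28 (0.40) and Nsun4 (0.34), and Rbfa falling by 0.23. Of 15 translation factors 4 rose (26.7%, near the share of all genes) and 0 fell, among them Oxa1l, which inserts the new peptides into the inner membrane (0.38), and the release factor Mtrf1 (0.36). Of 20 mitochondrial tRNA synthetases and amidotransferase subunits 3 rose (15.0%) and 2 fell (10%). In H/R against Sham 11.7% of all genes passed the test. Of these 4 lists 1 gene did, the elongation factor Tufm, at 39.7, 41.0 and 42.2 FPKM in Sham and 37.3, 38.9 and 37.4 in H/R (-0.11, adjusted p = 0.0483). The median changes in EGR1OV were 0.146, 0.1, 0.034 and 0.033 for these lists, and in H/R -0.061, -0.030, -0.043 and -0.057. Among 12 regulators of mitochondrial biogenesis tested, 5 rose (41.7%) and 2 fell (16.7%) in EGR1OV and 0 passed in H/R. Those that rose included Tefm (0.34), the mitochondrial transcription elongation factor, and the nuclear receptor Esrra (0.27), while Tfb2m, needed to start mitochondrial transcription, fell from 10.4, 11.6 and 11.0 FPKM to 7.80, 6.96 and 7.48 (-0.51, adjusted p = 0.000289).

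The mRNAs that the mitochondrial ribosome translates were lower in EGR1OV, and the difference between them and the ribosomal protein genes was not tested. Of the 12 mitochondrially encoded mRNAs tested, 0 rose and 12 fell against Sham, each by more than 1.3-fold (19.8% of all genes fell, 6.51% past that fold), with a median log2 change of -0.897. The apocytochrome mt-Cytb went from 2753, 2793 and 2890 FPKM in Sham to 1197, 1113 and 1206 (-1.26, SE 0.036, adjusted p = 4.5e-09), with 2772, 2723 and 2813 in H/R. The oxidase subunit mt-Co1 showed the smallest fall, from 7157, 7070 and 7490 FPKM to 5333, 4984 and 4869 (-0.52, adjusted p = 5.61e-06). In H/R against Sham 0 of the 12 passed the test, where 11.7% of all genes did, and the median change of the 12 was -0.011. Of the rRNAs, that of the small subunit, mt-Rnr1, rose from 132.8, 133.8 and 140.8 FPKM to 458, 366 and 388 (1.56, SE 0.071, adjusted p = 1.51e-07), whereas that of the large subunit, mt-Rnr2, overlapped between the groups at 136.1 to 141.8 and 136.9 to 167.6 FPKM (0.10, adjusted p = 0.364). Levels of some mitochondrial mRNAs were low, such as mt-Co2 at 39.3 to 43.0 FPKM in Sham, and how reads with several matches in the genome were counted is not given in the sources used here.

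**Figure D5:**
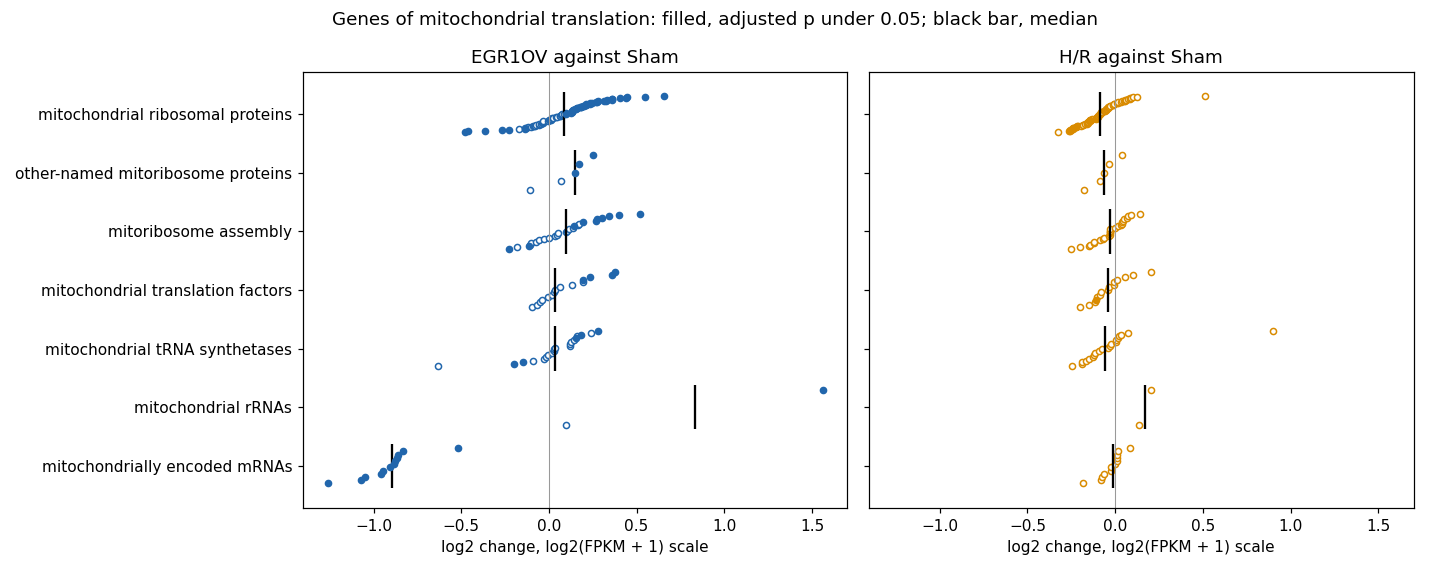
Log2 change of each gene in 7 groups of mitochondrial translation genes, for EGR1OV against Sham (left) and H/R against Sham (right), with filled points at an adjusted p under 0.05 and a black bar at the median. On the left the mitochondrially encoded mRNAs lie below 0 (median -0.897), and the ribosomal proteins have a median of 0.086.

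Cytosolic ribosomal proteins, the nearest group by function, gave other counts. Of 79 tested in EGR1OV against Sham 2 rose (2.5%) and 65 fell (82.3%), where all genes gave 26.1% and 19.8%. The median log2 change was -0.186. The mitochondrial ribosomal proteins gave 27 (35.1%) and 6 (7.8%) of 77. Among genes with over 600 coding bases the cytosolic group gave 2 risen (8.0%) and 21 fallen (84.0%) of 25. Protein-coding genes of that length other than the members gave 30.8% and 20.2%. In H/R against Sham 0 rose and 26 fell (32.9%), where all genes gave 4.15% and 7.54%, and the median of the cytosolic group was -0.106. The difference between the groups of genes was not tested.

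The FPKM values summed over the 77 members were 975, 975 and 1023 in Sham, 935, 913 and 911 in H/R, and 1011, 1021 and 1020 in EGR1OV. H/R lay below the other groups, while EGR1OV lay inside the range of Sham. The sum of the 22 short members was 389 ± 18.7 FPKM (SD, n = 3) in Sham and 347 ± 3.91 in EGR1OV, and that of the others 602 ± 9.10 and 671 ± 2.99. The ratio of the large-subunit to the small-subunit sum was 2.55 ± 0.042 for Sham, 2.49 ± 0.040 for H/R and 2.61 ± 0.048 for EGR1OV, with overlap of Sham with both other groups. These sums are descriptions and carry no test.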

How the data were processed

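RNA was measured in 9 libraries (Illumina NovaSeq). The authors deposited FPKM for 31167 genes in each library. The submitters' notes name mm9, Bowtie2 2.2.3, HISAT2 2.1.0 and TopHat2 without a role. Positions of 71 of the 77 members equalled GENCODE M21 (GRCm38), and coordinates of genes are those of the table. Reads were recovered from FPKM steps and exon lengths: 94.0% of 162887 values of 1 to 1000 reads were whole within 0.02 reads.

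The 13985 genes whose mean FPKM reached 0.5 were fitted over all 9 libraries in limma 3.58.1 (R 4.3.3, eBayes with trend) on log2(FPKM + 1), which understates changes of low genes. Tests were two-sided, with Benjamini-Hochberg adjustment over all genes. Calls needed an adjusted p under 0.05 and 1.3-fold (1.2-fold for H/R against Sham). The code was tested on simulated data. Single genes were not compared by exact permutation, which cannot go below p = 0.1 with 3 against 3 libraries.

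Members named are the 6 highest and 3 lowest in Sham, up to 8 rises and 8 falls per comparison (uncalled members past the adjusted p fill the places), and some fixed for their roles. From each list up to 3 genes per comparison were named, with further ones picked after their values were seen. The members and lists were chosen with earlier results of these data known. Alternatives covered the pseudocount, low-value filters, scaling, the replicate block, the variance model, the samples fitted, voom on recovered reads and each library left out.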

Additional observations from a re-analysis of the deposited data

Results flagged for a closer look

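The changes against Sham differed between the EGR1OV and H/R treatments for 41 members, by the limma test of EGR1OV against H/R at a Benjamini-Hochberg adjusted p under 0.05. Of these, 20 were named by the rule given above, and only their values are listed below. Other members of the 41 named in the text, such as Mrpl37 (log2 difference 0.414), are not in that list. The 41 are 53.2% of the 77 members, close to the 51.0% of all genes tested and below the 56.4% of protein-coding genes that passed the same test, so the count itself is not a result about the members. The values are differences on the log2(FPKM + 1) scale, EGR1OV minus H/R. Among large-subunit genes they were 0.641 for Mrpl30, 0.567 for Mrpl38, 0.547 for Mrpl35, 0.519 for Mrpl27, 0.51 for Mrpl2, 0.456 for Mrpl45, 0.446 for Mrpl1 and 0.411 for Mrpl4. Smaller positive differences were those of Mrps18a (0.321), Mrps30 (0.303), Mrpl42 (0.262) and Mrpl58 (0.188). In the small subunit they were 0.472 for Mrps11, 0.467 for Mrps34, 0.375 for Mrps22 and 0.359 for Mrps2. Negative differences were those of Mrpl52 (-0.269), Mrpl34 (-0.225), Mrps21 (-0.22) and Mrpl50 (-0.187). Under quantile normalization Mrpl42 (adjusted p = 0.0948) and Mrpl58 (adjusted p = 0.447) no longer passed.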

How the results depend on the processing

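In 2055 comparisons of a named member's value with its main value, 1889 stayed on the same side of the threshold, 117 lost it and 49 gained it. No value past the adjusted p changed sign, whereas 30 values not past it did, in 15 members, with main changes of at most 0.126 in size. Counts of members past the adjusted p stayed within 1.5 times in both comparisons with EGR1OV, but not their split under quantile normalization. For H/R against Sham the 11 members past the adjusted p became 3 with no filter on low values, 18 with a mean of at least 5 FPKM or with protein-coding genes only, 5 with median-ratio scaling or quantile normalization, 6 with a common sum over nuclear protein-coding genes or without trend, 7 with the coding-length trend removed, and 4 to 10 without 1 library. The single call became 4 at a pseudocount of 0.1, 2 with a mean of at least 5 FPKM or protein-coding genes only, 6 with voom and 0 to 4 without 1 library, and 0 under every other alternative but the fit of only the groups compared. Calls in EGR1OV against H/R were 5 under quantile normalization and 19 with voom, and at 2-fold there were 0 in each comparison. With voom on the recovered reads 6835, 2412 and 7495 of all genes were past the adjusted p in EGR1OV against Sham, H/R against Sham and EGR1OV against H/R. Over all genes, those past the adjusted p in H/R against Sham went from 1635 to 916 with no filter and to 866 to 1039 without Sham replicate 1, 2 or 3 or H/R replicate 2 or 3. Calls over all genes went from 2291, 594 and 2641 to 1315, 372 and 1520 with a mean of at least 5 FPKM, and those in H/R against Sham to 1001 with voom. The summed level moved with median-ratio scaling to 938 FPKM in H/R and 993 FPKM in EGR1OV. Replicate numbers are shared between groups, and the labels do not say whether they pair the libraries. Deviations of same-numbered libraries correlated at -0.195 to 0.263, and those of other libraries of different groups at -0.222 to 0.179. Of the 9 libraries, 3 correlated best with one of their own number. With 3 libraries a group these correlations cannot decide whether the numbers pair the libraries. With the replicate block, members past the adjusted p were 32, 5 and 40, and calls 7, 0 and 12. Over all genes that fit gave 43.6%, 8.2% and 48.7% past the adjusted p and 16.5%, 3.7% and 19.0% called. The causes were not tested. The coding-length and protein-coding alternatives were added after the data were seen.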
